A study of Arabidopsis thaliana with 6 samples.

Results

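The libraries described here are the pair labelled sap18, set against the pair labelled Col-0, over all 454 loci of the deposited table. They are 2 of the 6 libraries of the series, the other pairs being sr45 and Col-0, and no locus was left out. All were made from whole Arabidopsis seedlings grown for 11 days on MS medium at 22 °C, with no stress treatment. The regime was 16 h of light and 8 h of dark, and stratification was for 48 h at 4 °C. By the study's methods, sap18 and sr45 are T-DNA insertion lines of SAP18 and SR45 in the Columbia background, 1 line each, and Col-0 is the wild type that carries neither insertion. The labels disagree about the tested pair, since their descriptions say sap18 and their titles and genotype entries say sap18sr45, so they are called the libraries labelled sap18 throughout. No source used here says whether the 2 libraries of a label came from separately grown seedlings, so the spread between them may be technical.

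SAP18 is a small protein of the ASAP complex, in which it sits with the RNA-binding protein SR45 and the scaffold protein ACINUS. The complex joins spliceosomes and exon junctions and takes part in splicing. SAP18 was named in animals as a partner of the Sin3 histone deacetylase, which removes acetyl groups from histones and represses transcription. In Arabidopsis it is also known as a cofactor in the repression of the floral repressor gene FLC.

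The values are cRPKM, reads scaled by the mappable positions of a gene and by library size, made equal in distribution across libraries by the authors. The table holds loci that the authors had already called in at least 1 mutant, so a high share of it changes by construction, and counts of members are given with the shares over all 454 loci. The gene lists were also chosen with earlier results of these data known, so such counts are not independent tests of a group. A locus met the fold criterion when each of the 4 library ratios between the pairs was at least 2 the same way and both libraries of 1 pair were above 5 cRPKM. The test was limma on log2(cRPKM + 1) over all 6 libraries, with adjusted p under 0.05 as the threshold. Rose and fell below refer to that test. The loci had been picked for differences in these same libraries. The adjusted p-values therefore apply within this selection and cannot be read as error rates.

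SAP18 mRNA stood at 936 and 900 cRPKM in the libraries labelled sap18, against 76.7 and 83.7 cRPKM in Col-0. Both libraries labelled sap18 were far above all others, and sr45 had 75.6 and 94.3 cRPKM. The ratio of means was 11.4, the largest rise in the table (3.50 on the log2 scale, standard error 0.16, adjusted p = 9.25e-06). The level of SAP18 therefore runs against what the label of a loss-of-function insertion line would lead one to look for, and every direction drawn from these libraries carries that doubt. A value over the whole locus does not show which part of the transcript was made, and this was not tested.

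SR45, the other named component, had 20.9 and 23.1 cRPKM in the libraries labelled sap18, against 23.1 and 19.4 cRPKM in Col-0. The pairs overlapped, and the log2 change was 0.05 (standard error 0.16, adjusted p = 0.77). In sr45 it was at 5.39 and 4.98 cRPKM, and the libraries labelled sap18 were above sr45 by 1.89 on the log2 scale (adjusted p = 0.000125). The SR45 level in the libraries with sap18sr45 in their titles was thus not that of the sr45 pair. Neither ACINUS nor the other members of the ASAP and PSAP list, nor any of the 10 loci of the Sin3 histone deacetylase list, is among the 454 loci.

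In TAIR10.1, SAP18 (AT2G45640) takes up positions 18799528 to 18801471 of chromosome 2, on the minus strand. The window from 250 bases before its annotated start to 50 bases after it is shown because the mRNA of the labelled gene was the largest rise. In it and in the windows shown further on, capitals mark the core of the W-box, TTGAC on either strand, and the window of SAP18 holds none.
SAP18 promoter, chr2:18801422-18801721, minus strand: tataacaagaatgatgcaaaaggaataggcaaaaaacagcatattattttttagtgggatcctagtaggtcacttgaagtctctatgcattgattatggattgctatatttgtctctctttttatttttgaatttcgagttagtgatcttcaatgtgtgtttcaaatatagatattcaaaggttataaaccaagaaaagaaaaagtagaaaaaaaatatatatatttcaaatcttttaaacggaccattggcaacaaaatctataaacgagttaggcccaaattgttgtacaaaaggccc

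The table holds 3 other loci within 100 kb of SAP18. AT2G45630, a 2-hydroxyacid dehydrogenase family gene, lies 2264 bp beyond the end of SAP18, on the other strand, so that both genes run toward each other. It had 3.33 and 3.26 cRPKM in the libraries labelled sap18, against 8.28 and 7.24 cRPKM in Col-0, and fell by 1.03 on the log2 scale (adjusted p = 0.00138). The sr45 pair, at 9.50 and 8.06 cRPKM, overlapped Col-0, and the libraries labelled sap18 were below sr45 by test as well (log2 difference -1.18, adjusted p = 0.000827). AT2G45630 and SAP18 were thus the loci of this neighbourhood that met the fold criterion, in opposite directions. SOC1, which promotes flowering and lies 6033 bp away, had 38.7 and 38.7 cRPKM in the libraries labelled sap18, against 48.7 and 60.4 cRPKM in Col-0. Its log2 change of -0.48 passed the test at an adjusted p of 0.0468 and no longer did without replicate 1 or 2 labelled sap18 (0.149 each), Col-0 replicate 2 (0.213) or after centring each library on its median locus (log2 change -0.28, adjusted p = 0.223), or with a pseudocount of 0.1 (0.0605). PUB37, a U-box protein gene 97157 bp away, had a log2 change of -0.40 (adjusted p = 0.0568).

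Across the table, 42 of 454 loci (9.25%) met the fold criterion upward in the libraries labelled sap18 and 48 (10.6%) downward. By limma, 133 loci (29.3%) rose and 208 (45.8%) fell, and all 90 loci of the fold criterion were among them. The loci that met the criterion upward had a median of 14.9 cRPKM in the libraries labelled sap18 and 4.86 in Col-0. Of these 42, 21 were under 5 cRPKM in Col-0. Those that met it downward had medians of 6.53 cRPKM in the libraries labelled sap18 and 25.1 in Col-0. Of these 48, 21 were under 5 cRPKM in the libraries labelled sap18. The criterion asks for more than 5 cRPKM in 1 pair only, so a low level in the other pair is partly built in. Most changes were moderate: 22 of the 42 rises and 32 of the 48 falls were between 2-fold and 3-fold, and 10 rises and 5 falls were at least 5-fold. The median locus was lower by 0.19 on the log2 scale in the libraries labelled sap18. With each library centred on its median locus, 72 loci met the criterion upward and 28 downward, so the share of rises among the calls was 72% in place of 46.7%, while by limma 154 loci rose and 162 fell. Without Col-0 replicate 1, 68 loci met it upward and 81 downward, and without replicate 2 labelled sap18, 77 met it downward.

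**Figure D1:**
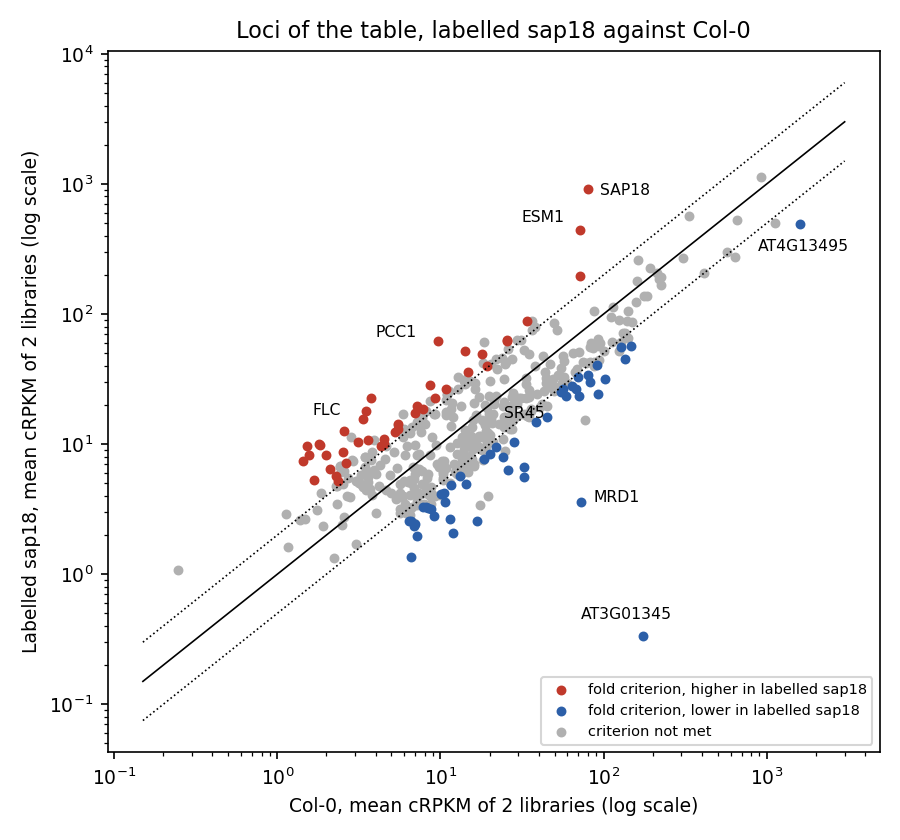
Mean cRPKM of each locus in the 2 libraries labelled sap18 (vertical axis) against the 2 Col-0 libraries (horizontal axis), both on log scales, with the solid line at equal levels and dotted lines at 2-fold. Red and blue points are loci that met the fold criterion upward and downward, grey points the others, CPuORF9 not drawn; SAP18 stands 11.4-fold above the line, AT3G01345 519-fold below it, and SR45 on it.

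The libraries of a pair were close to each other. The median absolute log2 difference between both libraries was 0.135 for the pair labelled sap18, 0.213 for sr45 and 0.193 for Col-0. Their ratio passed 1.5 at 24 loci in the pair labelled sap18, 70 in sr45 and 48 in Col-0. The 5 loci that differed most between the libraries labelled sap18 were MIR863A, the iron transporter gene IRT1, the cell wall protein gene AT2G20870, the solute carrier gene AT3G59320 and the response regulator gene ARR15. Organelle-encoded transcripts set 2 libraries apart: NAD4L, COX2 and PSBL summed to 21.5 and 23.8 cRPKM in the libraries labelled sap18 and 32.4 and 148 in sr45, against 184 and 43.4 in Col-0. COX2 fell by 1.79 on the log2 scale (adjusted p = 0.0306) and NAD4L by 1.81 (adjusted p = 0.0371), and neither passed without Col-0 replicate 1 (0.211 and 0.25), replicate 1 labelled sap18 (0.0723 and 0.137) or replicate 2 labelled sap18 (0.134 and 0.0933), while PSBL missed the threshold (log2 change -1.90, adjusted p = 0.0631). PSBL passed without Col-0 replicate 2 (0.025), with the 4 libraries of both pairs alone in the fit (0.0173), and without Col-0 replicate 1 and sr45 replicate 2 (log2 change -0.84, adjusted p = 0.000174).

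Among the tissue markers, the root list summed to 97.7 and 117 cRPKM in the libraries labelled sap18 and 100 and 114 in sr45, against 51.2 and 57.7 in Col-0, and 7 of its 8 members rose, beside 29.3% of all 454 loci. All 8 are loci that the authors had already called, and the list was chosen with earlier results of these data known. Its sum and count are therefore not an independent sign of a change in roots. The shoot and photosynthesis list, with PSBL among its 3 members in the table, summed to 105 and 103 cRPKM in the libraries labelled sap18 and 84.1 and 165 in sr45, against 169 and 69.05 in Col-0, and all 3 pairs overlapped. Of the nuclear shoot markers in the table, LHCB4.3 (a light-harvesting protein) had 81.7 and 76.4 cRPKM in the libraries labelled sap18, against 39.8 and 36.5 in Col-0, and ELIP1 rose too. The seed and flower markers are not among the 454 loci. In whole seedlings, more cells of a type and more RNA per cell cannot be told apart, and the part of tissue make-up in the changes below was not tested.

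**Figure D2:**
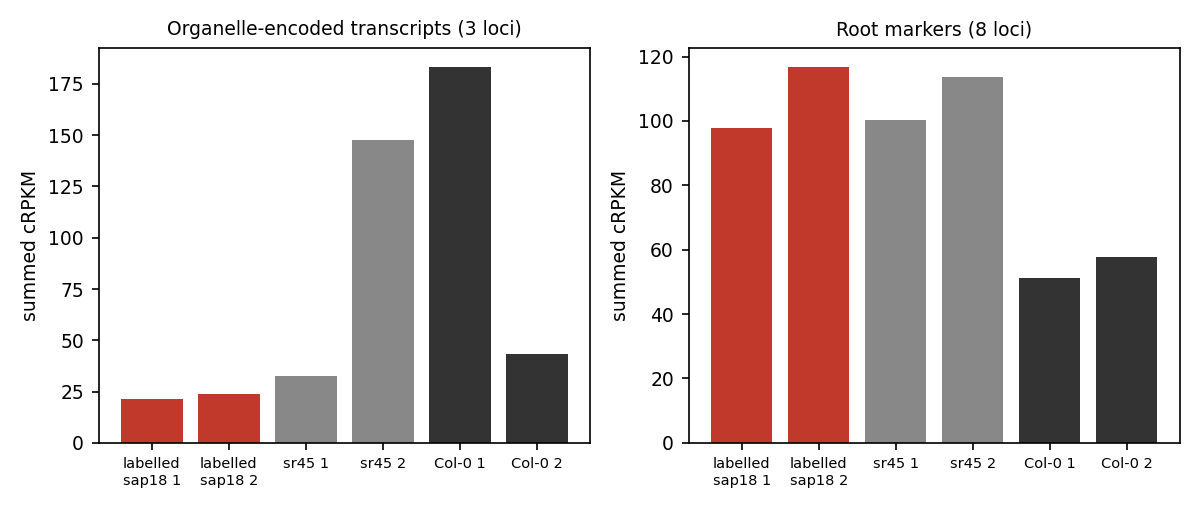
Summed cRPKM of the 3 organelle-encoded loci (left) and of the 8 root markers (right) in each of the 6 libraries, both axes from 0. Organelle transcripts reach 184 cRPKM in Col-0 replicate 1 and 148 in sr45 replicate 2 and stay under 44 in the others; root markers are at 97.7 or more in the pairs labelled sap18 and sr45, and under 58 in Col-0.

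After SAP18, the largest rise by the ratio of means was that of PCC1 (AT3G22231, chromosome 3, 7845823 to 7846833, minus strand), a small membrane protein gene under circadian control that responds to pathogens. It had 66.7 and 57.2 cRPKM in the libraries labelled sap18, against 9.26 and 10.04 cRPKM in Col-0, a 6.42-fold rise (log2 change 2.56, standard error 0.18, adjusted p = 6.23e-05). The neighbouring gene AT3G22235, which encodes a cysteine-rich membrane protein and begins on the same strand with 7585 bp between both genes, had 23.1 and 22.0 cRPKM in the libraries labelled sap18, against 4.39 and 3.14 cRPKM in Col-0. The fold criterion, by which both genes were chosen, already requires that their pairs do not overlap. In sr45, PCC1 had 10.6 and 7.97 cRPKM, and the libraries labelled sap18 were above sr45 by 2.62 on the log2 scale (adjusted p = 5.54e-05).

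ESM1, which in leaves favours isothiocyanates as products of glucosinolate breakdown, had 429 and 453 cRPKM in the libraries labelled sap18, against 71.1 and 71.4 cRPKM in Col-0. It rose 6.19-fold (log2 change 2.61, adjusted p = 2e-05), and sr45 stood higher still, at 808 and 749 cRPKM (log2 difference from sr45 -0.82, adjusted p = 0.00261). ESP, which turns the same breakdown toward nitriles, had 29.1 and 32.5 cRPKM in the libraries labelled sap18, against 17.4 and 12.9 cRPKM in Col-0, and rose by 0.99 on the log2 scale (adjusted p = 0.00532). With MYB51, a regulator of indole glucosinolate synthesis, the 3 of 8 listed glucosinolate genes that are in the table all rose, beside 29.3% of all loci.

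FLC, the MADS-box repressor of flowering, had 14.5 and 16.5 cRPKM in the libraries labelled sap18, against 2.73 and 3.93 cRPKM in Col-0. This was a 4.66-fold rise (log2 change 1.94, adjusted p = 0.000177). In sr45 it was at 57.8 and 57.4 cRPKM, and the libraries labelled sap18 were below sr45 by test (log2 difference -1.83, adjusted p = 0.000167). AGL24, a flowering promoter, had 19.9 and 20.9 cRPKM in the libraries labelled sap18, against 29.5 and 29.2 cRPKM in Col-0. Its log2 change of -0.50 (adjusted p = 0.0126) did not pass without replicate 1 or 2 labelled sap18 (0.0829 and 0.0582) or after centring (0.103).

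The other loci among the 12 largest rises were all under 5 cRPKM in Col-0, a level that the criterion permits for 1 pair. PUMP4, a mitochondrial dicarboxylate carrier gene, had 10.8 and 8.63 cRPKM in the libraries labelled sap18, against 1.45 and 1.59 in Col-0. XTH19, an enzyme that cuts and rejoins xyloglucan in the cell wall, had 10.4 and 9.48 cRPKM in the libraries labelled sap18, against 2.22 and 1.44 in Col-0. The ratio of means was 6.39 for PUMP4 and 5.44 for XTH19. AT1G67330, from a family in which some members methylate glucuronoxylan, rose 5.28-fold, and the glycine-rich protein gene AT1G07135 rose 5.22-fold. XTH19 was as high in sr45, at 11.3 and 11.4 cRPKM, with a log2 difference of -0.17 (adjusted p = 0.399) between the libraries labelled sap18 and sr45.

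**Figure D3:**
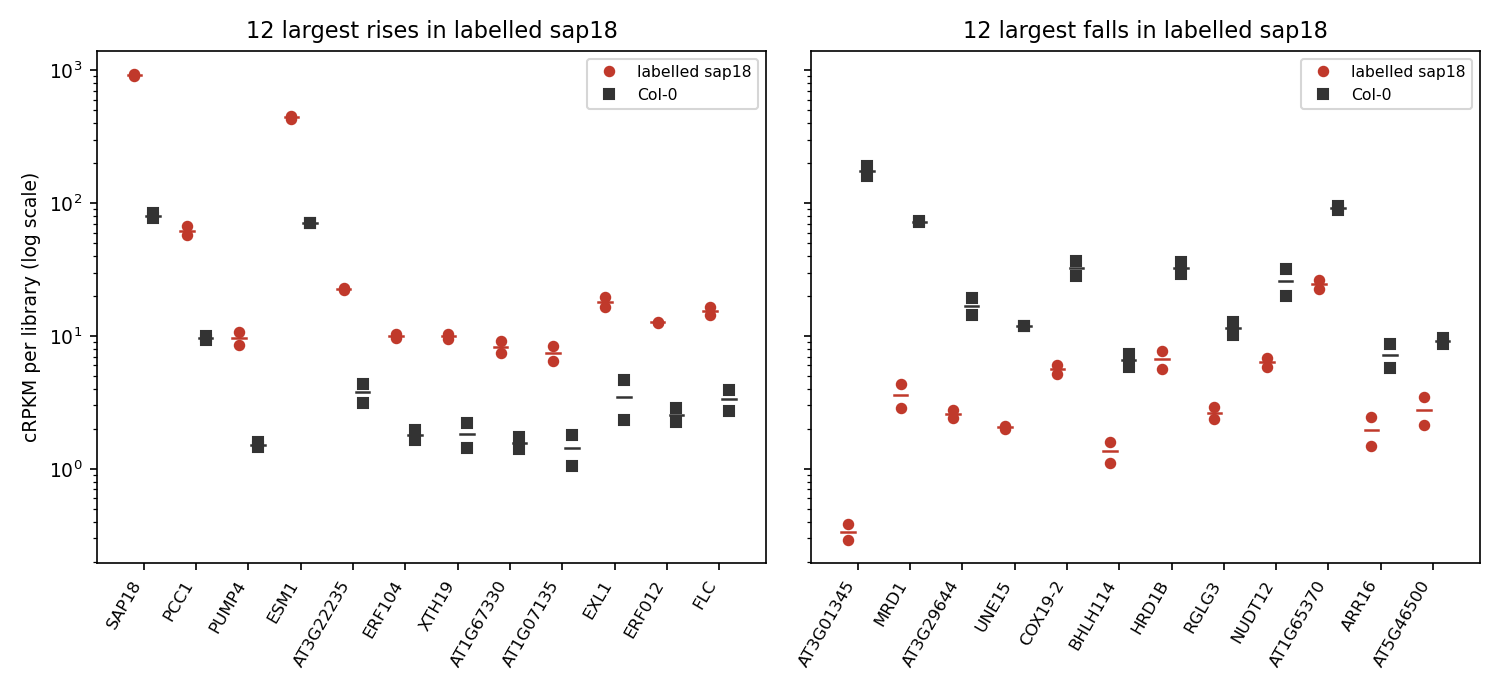
cRPKM in each library on a log scale for the 12 largest rises (left) and the 12 largest falls (right) that met the fold criterion, with the libraries labelled sap18 as red circles, Col-0 as black squares and bars at the mean of each pair. The criterion that chose these loci requires that their pairs do not overlap; AT3G01345 is under 0.4 cRPKM in both libraries labelled sap18 and at 161 or more in Col-0.

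Genes that respond quickly to touch, wounding or microbial elicitors rose together, in a list chosen with earlier results of these data known. Of 22 listed genes, 12 are in the table, all 12 rose, beside 29.3% of all 454 loci, and 7 met the fold criterion upward, beside 9.25%. The median log2 change was 1.27, beside -0.38 over all loci. The transcription factor gene ERF104, which acts downstream of elicitor-activated MAP kinases, had 10.3 and 9.71 cRPKM in the libraries labelled sap18, against 1.65 and 1.97 in Col-0. ERF012, a further member of the ERF family, had 12.5 and 12.9 cRPKM in the libraries labelled sap18, against 2.27 and 2.85 in Col-0. These were 5.53-fold and 4.94-fold rises. XTH22, also known as TOUCH4, had 83.8 and 92.5 cRPKM in the libraries labelled sap18, against 36.0 and 31.6 in Col-0. SZF1, a zinc finger protein of the salt and immune responses, had 19.9 and 19.0 cRPKM in the libraries labelled sap18, against 6.74 and 7.64 in Col-0. CAF1-9, a deadenylase that shortens mRNA tails, had 10.6 and 10.3 cRPKM in the libraries labelled sap18, against 3.59 and 2.61 in Col-0. The smallest changes of the list were those of MYB51 (log2 change 0.61) and WRKY33 (0.91), both regulators of defence compounds. The calls of MYB51 and of the ubiquitin ligase gene ATL2 ended without replicate 1 labelled sap18 (adjusted p = 0.0575 and 0.0816), and that of ATL2 also without Col-0 replicate 1 (0.0847).

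The promoter windows of 2 of these genes, of the same length as that of SAP18, are shown because the group moved together and WRKY factors, which bind the W-box, act in such responses. Of the 12 windows, 9 (75%) hold TTGAC on either strand. The share was 50.4% of the 427 protein-coding loci of the table and 50.5% of 27443 RefSeq protein-coding genes of TAIR10.1. The 12 genes come from a list chosen with earlier results of these data known. Whether WRKY factors act on them in these libraries was not tested. Over the protein-coding loci that met the fold criterion the share was 48.8% of 41 for rises and 51.2% of 41 for falls. The core of the rapid stress response element, CGCGTT on either strand, was in 2 of the 12 (16.7%). It was in 4 of the 41 rises (9.76%) and in 1 of the 41 falls (2.44%). The shares were 3.04% over the protein-coding loci of the table and 3.4% over the RefSeq protein-coding genes. The G-box, CACGTG, was in none of the 12, in 7.32% of the 41 rises and in 14.6% of the 41 falls. It was in 10.3% of the protein-coding loci of the table and in 7.68% of the RefSeq protein-coding genes. The motifs do not overlap each other in the windows printed, of which SZF1 holds 4 cores of the W-box and XTH22 holds 1.
SZF1 promoter, chr3:20775970-20776269, plus strand: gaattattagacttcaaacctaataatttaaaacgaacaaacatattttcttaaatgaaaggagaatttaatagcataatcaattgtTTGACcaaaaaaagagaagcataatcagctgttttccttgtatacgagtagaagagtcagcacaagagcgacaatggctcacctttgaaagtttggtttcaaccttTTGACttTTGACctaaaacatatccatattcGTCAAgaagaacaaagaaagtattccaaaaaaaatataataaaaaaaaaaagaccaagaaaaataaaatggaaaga
XTH22 promoter, chr5:23308631-23308930, minus strand: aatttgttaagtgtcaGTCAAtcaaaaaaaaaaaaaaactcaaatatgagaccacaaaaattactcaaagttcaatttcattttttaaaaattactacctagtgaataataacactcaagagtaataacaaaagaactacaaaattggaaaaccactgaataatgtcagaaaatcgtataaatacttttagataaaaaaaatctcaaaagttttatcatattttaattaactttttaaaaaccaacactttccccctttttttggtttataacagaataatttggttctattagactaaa

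Cell wall genes rose in nearly the whole list. Of 20 listed genes 18 are in the table, where 16 rose and 1 fell, beside 29.3% and 45.8% of all loci. The fold criterion was met by 6, all upward, beside 9.25%, and the median log2 change was 1.07. AGP17, an arabinogalactan protein, had 63.0 and 62.7 cRPKM in the libraries labelled sap18, against 28.4 and 22.4 in Col-0. LRX3, a leucine-rich repeat extensin of the wall, had 54.9 and 68.5 cRPKM in the libraries labelled sap18, against 23.9 and 27.3 in Col-0. AT5G09530, a proline-rich wall protein, had 11.6 and 9.97 cRPKM in the libraries labelled sap18, against 2.61 and 4.63 in Col-0. The member that fell was XTH25 (log2 change -0.57, adjusted p = 0.0149), named after its value was seen, and its call ended after centring and without either library labelled sap18 or Col-0 replicate 2. XTH19 and XTH22, described above and of the same enzyme family, rose, XTH22 being a member of both lists. For ATGRP9, a glycine-rich protein, the libraries labelled sap18 had 68.4 and 52.4 cRPKM, against 26.3 and 10.5 in Col-0, where the libraries differed from each other by more than the criterion's 2-fold.

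The EXORDIUM family, secreted proteins tied to growth under brassinosteroids and low carbon, has 3 of its 6 listed genes in the table, and all 3 met the fold criterion upward, beside 9.25% of all loci. EXO had 50.9 and 52.3 cRPKM in the libraries labelled sap18, against 14.9 and 13.2 in Col-0. EXL1 had 16.4 and 19.5 cRPKM in the libraries labelled sap18, against 4.64 and 2.33 in Col-0. EXL5 rose 2.42-fold. The sr45 pair was lower for all 3 genes, by test, than the libraries labelled sap18 (log2 differences of 1.98 for EXO, 2.91 for EXL1 and 1.54 for EXL5, adjusted p of 0.000125, 0.000609 and 0.00103).

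Of the class III peroxidases, wall enzymes that are mostly active in roots, 3 of the 4 in the table rose by 1.01 to 1.22 on the log2 scale (PER22, PER30 and PER32), beside 29.3% of all loci, and none met the fold criterion. PER33 had 12.3 and 13.2 cRPKM in the libraries labelled sap18, against 12.5 and 15.8 in Col-0, a log2 change of -0.13 (adjusted p = 0.499). PER33 is a close copy of other peroxidase genes. Reads shared between such copies may make the values of PER33 and PER32 uncertain, which was not tested. All 4 are root markers, so these rises and the summed root level given above are not separate observations.

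Among salicylate and immune response genes, 9 of 16 are in the table, of which 6 rose, 1 fell and 4 met the fold criterion upward, beside 29.3%, 45.8% and 9.25% of all loci. PCC1 led this list. WRKY70, a transcription factor of salicylate signalling, had 17.6 and 19.8 cRPKM in the libraries labelled sap18, against 8.25 and 7.30 in Col-0. WAK1, a wall-associated kinase that senses pectin fragments, had 10.5 and 9.53 cRPKM in the libraries labelled sap18, against 4.45 and 4.50 in Col-0. ACD6, an ankyrin protein that promotes salicylate accumulation, rose by 0.98 on the log2 scale (adjusted p = 0.00123). The calls of the chitinase gene CHI-B and of the receptor kinase gene SERK4 ended without replicate 2 labelled sap18 (adjusted p = 0.0569 and 0.0722), that of CHI-B also without Col-0 replicate 1 (0.0546) and that of SERK4 also without Col-0 replicate 2 (0.0878). CRK18 and CRK19, receptor-like kinases encoded 874 bp apart, had log2 changes of -0.59 (adjusted p = 0.0126) and 0.43 (adjusted p = 0.0689). CRK19 passed after centring (0.016), without replicate 1 labelled sap18 (0.034) and without Col-0 replicate 1 and sr45 replicate 2 (0.0291). The call of CRK18 ended without replicate 1 or 2 labelled sap18 or Col-0 replicate 2 (0.0791, 0.054 and 0.0565) and after centring (0.0769).

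**Figure D4:**
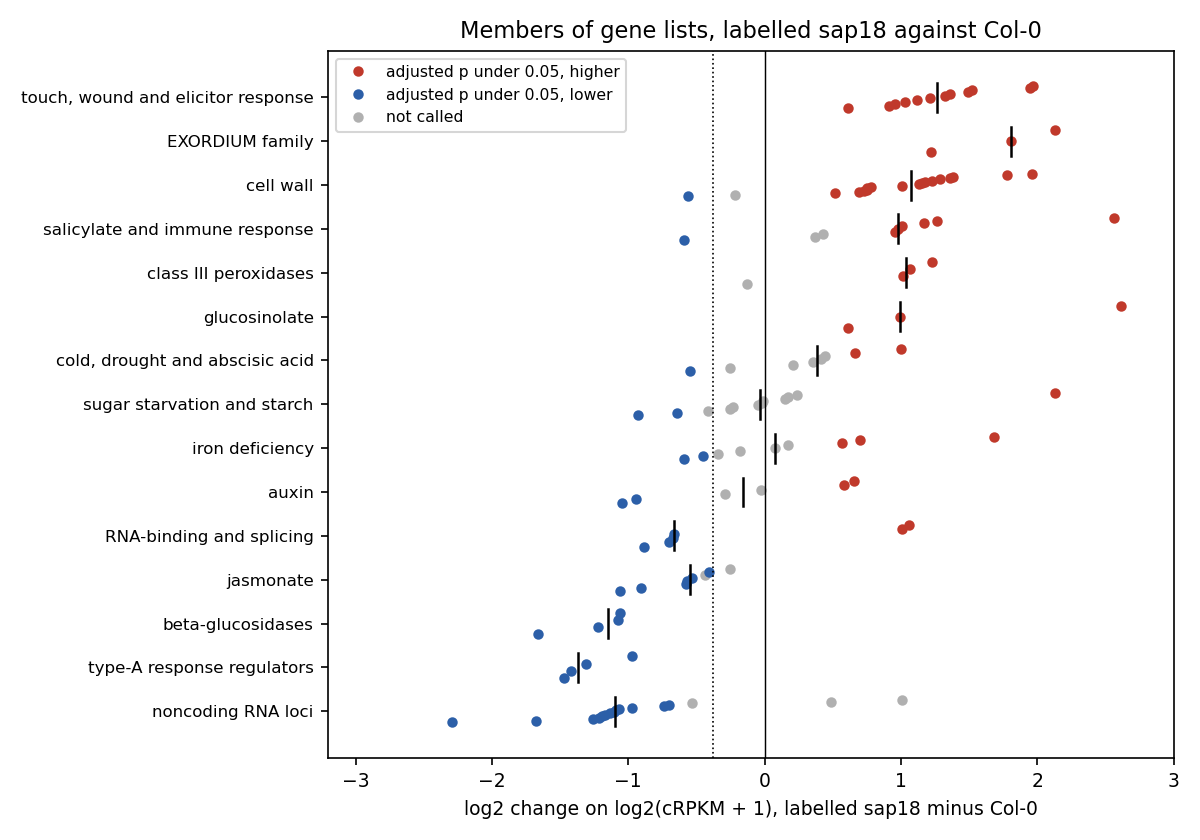
The log2 change of each member in the table, labelled sap18 minus Col-0 on log2(cRPKM + 1), by gene list, with red and blue for an adjusted p under 0.05 upward and downward, grey for no call, and a bar at each list's median. The dotted line is the median of all loci but CPuORF9; all 12 touch, wound and elicitor members lie right of 0, and all 4 type-A response regulators and all 4 beta-glucosidases lie left of it.

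The largest fall was that of AT3G01345 (chromosome 3, 129138 to 130749, plus strand), an uncharacterized protein. It had 0.384 and 0.291 cRPKM in the libraries labelled sap18, against 189 and 161 cRPKM in Col-0, a 519-fold lower mean (log2 change -7.04, standard error 0.31, adjusted p = 9.25e-06). The sr45 pair was low as well, at 1.29 and 3.79 cRPKM. MRD1, named for its fall in a mutant that accumulates methionine, had 2.86 and 4.36 cRPKM in the libraries labelled sap18, against 73.4 and 72.0 cRPKM in Col-0, and fell by 4.02 on the log2 scale (adjusted p = 6.23e-05). For both loci the libraries labelled sap18 lay more than 10-fold below Col-0.

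AT3G29644 (chromosome 3, 11498879 to 11501424, minus strand) is a noncoding RNA annotated as a possible antisense partner of AT3G29642. It had 2.76 and 2.41 cRPKM in the libraries labelled sap18, against 14.3 and 19.2 cRPKM in Col-0. Here sr45 stayed near Col-0, at 15.1 and 12.9 cRPKM, and the libraries labelled sap18 were below sr45 by test (log2 difference -2.06, adjusted p = 0.000125). BHLH114, a basic helix-loop-helix transcription factor gene, showed the same order, with 1.60 and 1.11 cRPKM in the libraries labelled sap18, against 5.88 and 7.35 in Col-0, and 4.55 and 5.69 in sr45 (log2 difference from sr45 of -1.38, adjusted p = 0.000934). Of the named loci, AT3G01345, AT2G45630 and SAUR22 also had means at least 2-fold below both Col-0 and sr45 and passed both tests.

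COX19-2, an assembly factor of cytochrome c oxidase, had 5.18 and 6.07 cRPKM in the libraries labelled sap18, against 36.6 and 28.4 cRPKM in Col-0. HRD1B, a ubiquitin ligase that removes misfolded proteins of the endoplasmic reticulum, had 5.63 and 7.77 cRPKM in the libraries labelled sap18, against 29.0 and 35.8 cRPKM in Col-0. These means were 5.77-fold and 4.84-fold lower. RGLG3, a ubiquitin ligase that acts upstream of jasmonate signalling, was 4.36-fold lower and NUDT12, a nudix hydrolase, 4.08-fold lower. AT1G65370, a TRAF-like protein gene, had 22.5 and 26.4 cRPKM in the libraries labelled sap18, against 89.4 and 94.8 cRPKM in Col-0. AT5G46500, named for variation in root growth, had 2.13 and 3.46 cRPKM in the libraries labelled sap18, against 9.66 and 8.67 in Col-0.

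Type-A response regulators, which cytokinin induces and which damp cytokinin signalling, have 4 of 10 listed genes in the table. All 4 fell, beside 45.8% of all loci, and 2 met the fold criterion downward, beside 10.6%, with a median log2 change of -1.37. ARR7 had 25.8 and 26.9 cRPKM in the libraries labelled sap18, against 60.5 and 74.3 in Col-0. ARR16 had 2.44 and 1.49 cRPKM in the libraries labelled sap18, against 5.79 and 8.65 in Col-0. ARR15 had 11.4 and 6.42 cRPKM in the libraries labelled sap18, against 26.8 and 22.8 in Col-0, where the distance between the libraries labelled sap18 kept it from the criterion by a highest ratio of 0.502. ARR6 fell as well (log2 change -0.97, adjusted p = 0.00251).

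The 4 listed beta-glucosidases, BGLU5 to BGLU8, of a family named for releasing compounds from their glucosides, are all in the table. All 4 fell, beside 45.8% of all loci, and 3 of them met the fold criterion downward, beside 10.6%. The list was chosen with earlier results of these data known, so these shares are not an independent test of the family. BGLU8 had 30.7 and 32.4 cRPKM in the libraries labelled sap18, against 105 and 98.2 in Col-0. BGLU5 had 32.7 and 32.4 cRPKM in the libraries labelled sap18, against 70.4 and 68.8 in Col-0. BGLU7 and BGLU8 lie 180 bp apart on chromosome 3 and BGLU5 and BGLU6 lie 141 bp apart on chromosome 1. Neighbouring copies of this kind can share reads, so that their values may not be independent, which was not tested.

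Of 14 listed jasmonate genes 8 are in the table, of which 6 fell, beside 45.8% of all loci, and 1 met the fold criterion downward, a share near the 10.6% of all loci. OPR3, an enzyme of jasmonate synthesis, had 25.7 and 27.2 cRPKM in the libraries labelled sap18, against 54.7 and 57.6 in Col-0 (log2 change -1.06, adjusted p = 0.00141). TIFY7, a JAZ repressor of the pathway, had 70.0 and 73.5 cRPKM in the libraries labelled sap18, against 135 and 135 in Col-0 (log2 change -0.91, adjusted p = 0.00148). The other 4 calls (AOC1, AOC2, ILL6 and VSP2) lay between -0.41 and -0.58 and ended after centring, which left 2 of the 6. All 4 also ended without replicate 1 or 2 labelled sap18 and without Col-0 replicate 2. MYC2, the main transcription factor of the pathway, had 15.5 and 18.4 cRPKM in the libraries labelled sap18, against 25.7 and 16.2 in Col-0, and the pairs overlapped (log2 change -0.26, adjusted p = 0.307). Its log2 change was -0.57 without Col-0 replicate 2 and 0.06 without Col-0 replicate 1. The list's median of -0.55 stands beside -0.38 over all loci.

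Of 16 noncoding RNA loci, none rose and 13 fell, beside 29.3% and 45.8% of all loci, and 6 met the fold criterion downward, beside 10.6%, with a median log2 change of -1.10, beside 190 of 427 protein-coding loci that fell, with a median of -0.35. Of the 7 pseudogenes, 1 rose, 3 fell and 1 met the criterion downward. A group of such loci lies on chromosome 4. AT4G13495 (7842967 to 7846774, plus strand), an RNA of unknown function, had 487 and 501 cRPKM in the libraries labelled sap18, against 1448 and 1729 cRPKM in Col-0, a 3.22-fold lower mean. It contains the precursor locus of miR850 and overlaps that of miR863 on the same strand, so that reads of these loci may be shared. The counts of falls above take AT4G13495, MIR850A and MIR863A as separate loci, though they may not be separate observations. MIR850A had 54.8 and 56.6 cRPKM in the libraries labelled sap18, against 126 and 128 in Col-0. MIR863A had 10.01 and 22.6 cRPKM in the libraries labelled sap18, against 32.0 and 35.5 in Col-0, and its log2 change of -1.11 (adjusted p = 0.0249) was -0.56 (adjusted p = 0.167) without replicate 1 labelled sap18 and did not pass without either Col-0 library (0.0764 and 0.109).

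The mature miRNAs encoded there are shown, in RefSeq's sequence of TAIR10.1, because their precursor loci lie within or overlap AT4G13495, which fell; the libraries measured poly(A) RNA of the loci and not the mature molecules. Capitals mark the seed, bases 2 to 8, and the 3 seeds differ from each other.
miR850, chr4:7845756-7845777, plus strand: uAAGAUCCggacuacaacaaag
miR863-5p, chr4:7846644-7846664, plus strand: uUAUGUCUuguugaucucaau
miR863-3p, chr4:7846835-7846855, plus strand: uUGAGAGCaacaagacauaau

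UNE15, a late embryogenesis abundant protein gene 32.8 kb beyond AT4G13495, had 2.11 and 2.00 cRPKM in the libraries labelled sap18, against 11.9 and 11.8 cRPKM in Col-0, and fell by 2.08 on the log2 scale (adjusted p = 6.23e-05). AT4G13575, an uncharacterized protein gene 6.32 kb further along, had a mean 2.99-fold below Col-0 in the libraries labelled sap18. Both loci were lower still in sr45, and by test the libraries labelled sap18 were above sr45, by 0.95 for UNE15 (adjusted p = 0.00128) and by 2.45 for AT4G13575 (adjusted p = 5.54e-05) on the log2 scale.

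RNA-binding and splicing genes moved both ways. Of 14 listed, 6 are in the table, 2 rose and 4 fell, beside 29.3% and 45.8% of all loci, and none met the fold criterion. UBA2C, an RNA-binding protein gene, had 16.8 and 18.9 cRPKM in the libraries labelled sap18, against 9.61 and 6.72 in Col-0 (log2 change 1.06, adjusted p = 0.00199). The call of UBA2B, its relative, ended without replicate 1 labelled sap18 (adjusted p = 0.0554). RS31A, an SR protein of splicing, had 7.05 and 7.12 cRPKM in the libraries labelled sap18, against 12.3 and 12.1 in Col-0, and the splicing factor gene AT2G16940 had 33.9 and 37.9 cRPKM, against 69.4 and 64.8 in Col-0. SRD2, which acts in small nuclear RNA transcription, fell (log2 change -0.67, adjusted p = 0.00532). SNRNP65, a component of the minor spliceosome, had a log2 change of -0.66 (adjusted p = 0.00706), and without replicate 2 labelled sap18 it did not pass (0.068).

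Mitochondrial and plastid carriers also split. PUMP4 met the fold criterion upward, as described, and its relative PUMP5 had 7.98 and 5.37 cRPKM in the libraries labelled sap18, against 2.91 and 1.94 in Col-0, and rose by 1.16 on the log2 scale. SAMC1, which imports S-adenosylmethionine into plastids, had 29.2 and 30.4 cRPKM in the libraries labelled sap18, against 89.5 and 75.3 in Col-0, and met it downward.

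Of 11 listed iron deficiency genes 9 are in the table, of which 3 rose and 2 fell, beside 29.3% and 45.8% of all loci, and none met the fold criterion. IRT1, the main iron transporter of roots, had 7.11 and 15.7 cRPKM in the libraries labelled sap18, against 1.60 and 4.05 in Col-0, and its call (log2 change 1.69, adjusted p = 0.00797) ended without replicate 2 labelled sap18 (0.06) or Col-0 replicate 1 (0.0631). The other 4 calls, of IMA3, ATOPT3, IMA2 and ORG3, each ended without at least 1 library: 3 rises became 0 without replicate 2 labelled sap18 and 1 without either Col-0 library, and 2 falls became 0 without replicate 1 labelled sap18, without Col-0 replicate 1 and after centring, and 1 without Col-0 replicate 2. Values in sr45 are given for a pair of these genes. ORG3, a bHLH regulator of iron uptake, had 1.38 and 2.02 cRPKM in the libraries labelled sap18, against 12.9 and 11.9 in sr45 and 3.41 and 2.68 in Col-0, a log2 difference from sr45 of -2.32 (adjusted p = 9.65e-05). IMA2, an IRON MAN peptide gene, had 6.69 and 8.24 cRPKM in the libraries labelled sap18, against 41.4 and 38.5 in sr45 and 10.4 and 10.8 in Col-0 (log2 difference from sr45 -2.28, adjusted p = 5.54e-05).

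Of 14 listed sugar starvation and starch genes 12 are in the table, of which 1 rose (EXL1), 2 fell and 9 did not pass, beside 29.3% and 45.8% of all loci that rose and fell. RFS6, a raffinose synthase, had 220 and 232 cRPKM in the libraries labelled sap18, against 205 and 179 in Col-0 (log2 change 0.24, adjusted p = 0.182, and 0.43 with adjusted p = 0.0392 after centring), and STP1, a sugar transporter, 171 and 189 cRPKM, against 156 and 162 in Col-0 (log2 change 0.17, adjusted p = 0.4). In sr45 RFS6 was at 74.6 and 68.8 cRPKM, and the libraries labelled sap18 were above sr45 by 1.64 on the log2 scale (adjusted p = 0.000144). SBE2.1, a starch branching enzyme, had 8.24 and 9.76 cRPKM in the libraries labelled sap18, against 19.1 and 16.8 in Col-0, and fell (log2 change -0.93, adjusted p = 0.00181). The call of PU1, a starch debranching enzyme (log2 change -0.65, adjusted p = 0.0249), ended without replicate 1 or 2 labelled sap18 (0.137 and 0.0599), without Col-0 replicate 1 (0.137) and after centring (0.0903).

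Of 8 cold, drought and abscisic acid genes in the table, out of 10 listed, 2 rose, 1 fell and 5 did not pass, beside 29.3% and 45.8% of all loci that rose and fell. ELIP1, a light stress protein of chloroplasts, had 9.43 and 9.83 cRPKM in the libraries labelled sap18, against 4.15 and 4.46 in Col-0, and met the fold criterion. RD22 had a log2 change of 0.67 (adjusted p = 0.00726) that did not pass without replicate 2 labelled sap18 (0.0584). After centring, 5 of the 8 rose and none fell. Of 6 auxin genes, out of 8 listed, 2 rose and 2 fell, beside the same shares of all loci. SAUR22, a small auxin-induced gene, had 6.18 and 5.81 cRPKM in the libraries labelled sap18, against 11.5 and 15.7 in Col-0, and ARF9, an auxin response factor, 7.04 and 8.31 cRPKM, against 16.7 and 14.5 in Col-0. The rises of LAX3 and MAKR1 ended without replicate 2 labelled sap18 (adjusted p = 0.0788 and 0.0766), and that of MAKR1 also without replicate 1 labelled sap18 (0.122) or Col-0 replicate 1 (0.156). Of the 10 listed heat shock genes Fes1B alone is in the table, with 15.7 and 15.5 cRPKM in the libraries labelled sap18, against 17.8 and 22.9 in Col-0 (log2 change -0.35, adjusted p = 0.086, and 0.0373 without Col-0 replicate 1).

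Against sr45, 201 of 454 loci (44.3%) were higher in the libraries labelled sap18 by limma and 64 (14.1%) lower. SAP18, PCC1 and AT4G13575 were among the higher ones and FLC, ORG3 and IMA2 among the lower ones, as given above. Where a locus changed past the threshold against Col-0 in the libraries labelled sap18, this alone does not set them apart from sr45. For AT3G01345 the libraries labelled sap18 were lower than sr45 by test (log2 difference -1.31, adjusted p = 0.00969), at levels in both pairs that are low beside Col-0. For MRD1, HRD1B, BGLU8 and ARR16 the log2 differences from sr45 were -0.16, 0.04, 0.23 and -0.22 (adjusted p of 0.619, 0.85, 0.185 and 0.512).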

How the data were processed

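The authors deposited 1 table with a cRPKM value, a form of RPKM, per locus and library, and no reads or counts, so the depth behind a value is unknown. Per the study's methods, poly(A) libraries that keep the strand were quantified with vast-tools against an extended Arabidopsis annotation, with quantile normalization across libraries; the labels give build TAIR 10. Quantile normalization forces equal distributions, and the 454 loci are those the authors had called in a mutant, so counts describe this selection. The study's minimum of 50 reads could not be applied. Symbols, biotypes, positions and sequences came from RefSeq's TAIR10.1, which held 450 of the 454 loci; the table itself gives no coordinates. No value is printed for CPuORF9, which overlaps another gene.

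Libraries were grouped by their descriptions. The tests were limma 3.58.1 in R 4.3.3 (lmFit and eBayes, all 6 libraries in 1 fit, log2(cRPKM + 1), Benjamini-Hochberg adjustment over 454 loci, two-sided) and the fold criterion. The pseudocount of 1 understates the change of low loci. An exact permutation test of 2 libraries against 2 cannot go below 0.333, so none is given. The script was tested on simulated data. Tables and figures were made with Python 3.11.15, numpy 2.4.6, pandas 2.3.3 and matplotlib 3.10.9.

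Named genes were SAP18, SR45, the 12 largest rises and falls at the fold criterion, up to 8 members of each list by absolute log2 change, loci of the table within 100 kb of SAP18 and the 5 loci differing most between the libraries labelled sap18. AT4G13495, MIR850A, AT4G13575, WRKY33 and XTH25 lie outside this rule and were named after their values were seen, and LHCB4.3 is a tissue marker. The members, lists and this rule were chosen with earlier results of these data known. Alternatives covered the fold threshold, ratios of means, filters, pseudocounts, centring, the fit and leaving out each library.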

Additional observations from a re-analysis of the deposited data

How the results depend on the processing

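The counts by limma stayed within 1.5 times of 133 rises and 208 falls under every alternative run. Leaving out 1 library gave 101 to 139 rises and 154 to 222 falls. The fold criterion moved more. At a threshold of 1.5 it gave 102 rises and 149 falls, and at 3 it gave 13 and 10. With the ratio of means in place of the 4 library ratios it gave 87 rises and 99 falls, and above 10 cRPKM it gave 27 rises. Centring on the median locus gave 72 rises and 28 falls. Leaving out 1 library, which leaves fewer ratios to meet, gave 56 to 68 rises and 64 to 81 falls. Col-0 replicate 1 and sr45 replicate 2 were high in organelle transcripts, and leaving out both was an alternative chosen after seeing the data. For the fold criterion it equals leaving out Col-0 replicate 1 alone, since sr45 does not enter the criterion. Of the 115 genes of the naming rule, 73 kept their direction and their side of the threshold under every limma alternative. The log2 changes that turned sign belonged to genes that were not called. Leaving out each library in turn, SR45 ranged between -0.0698 and 0.17, MYC2 between -0.57 and 0.06, PER33 between -0.29 and 0.029, IAA29 between -0.13 and 0.0802 and BHLH101 between -0.026 and 0.36. Centring gave 0.0093 for IMA1, 0.062 for PER33 and 0.17 for IAA29, and leaving out both organelle-rich libraries gave 0.060 for MYC2 and -0.026 for BHLH101. The cause of these turns was not tested. Replicate numbers did not pair the samples: the differences between replicates 1 and 2 correlated across loci at -0.035 (labelled sap18 and Col-0), 0.08 (labelled sap18 and sr45) and -0.106 (Col-0 and sr45). With a replicate block, limma gave 134 rises and 207 falls, and of the 115 genes VSP2 lost its call. The read depth reached in each library is not given with the values, so the spread between 2 libraries is the only measure of precision.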
